A study of Mus musculus with 3 samples.

Results

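The respiratory chain is the set of protein complexes in the inner mitochondrial membrane that passes electrons from nutrients to oxygen and uses the resulting proton gradient to make ATP. Complex I takes electrons from NADH and complex II from succinate, coenzyme Q carries them to complex III, cytochrome c carries them on to complex IV, and complex V, the ATP synthase, uses the gradient. Most subunits are encoded in the nucleus, some of them by isoform genes that are used mainly in muscle, testis or lung. Long-term haematopoietic stem cells are known for few divisions and for a reliance on glycolysis, so the transcripts of the chain are of interest in these cells.

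The genes were chosen by symbol, through the platform annotation: the subunit families Nduf of complex I, Sdh of complex II, Uqcr with Cyc1 of complex III, Cycs (cytochrome c), Cox4 to Cox8 of complex IV and Atp5 of complex V. The pattern found 82 genes on 108 probe sets among the 19938 genes measured: 35 of complex I, 4 of complex II, 9 of complex III, Cycs, 16 of complex IV and 17 of complex V. Ndufb4 and Cox7c have only probe sets shared with another gene and were not counted, and Ndufb1 and the pseudogene Cox6c2 are not analysed here. The 13 subunits encoded by mitochondrial DNA are not analysed here either.

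The samples are KLS SLAM cells, a population enriched for long-term stem cells, sorted from bone marrow of wild-type C57Bl/6 mice aged 6 to 10 weeks. The sort took lineage-negative (Lin-) cells with Sca-1, c-Kit and CD150 on their surface that were CD48- and CD41-. They give 3 arrays in 1 group, called arrays 1, 2 and 3 after their replicate numbers, so no condition could be compared. The labels name no animals or pools behind an array, and p-values measure only the spread between these 3 samples, which may be technical. The RNA was amplified before labelling. Values are log2 of the deposited intensities, and an error is the SD over the 3 arrays (n = 3).

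Signal was set against 1227 olfactory, vomeronasal and taste receptor genes, most of which blood cells are not known to use. Their 95th percentile, here the limit of the background range, lay at 6.30, 5.98 and 5.77 log2 for arrays 1, 2 and 3, and a gene above the range exceeded it on each array. Each probe set has its own affinity, so levels of different genes were not ranked against each other, and a gene below the limit is not shown to be absent. Of the sort markers, Kit was above the range at 10.01 ± 0.23, Slamf1, which encodes CD150, at 6.51 ± 0.13 and Itga2b, which encodes CD41, at 6.37 ± 0.14. Cd48 was at 5.46 ± 0.77 and passed the limit on array 3 alone. The 4 stem cell markers Procr, Mecom, Hlf and Mllt3 were all above the range, as were 6 of 6 neutrophil markers. Of 4 erythroid markers 1, Slc4a1, was above it, while Epor and Alas2 passed the limit on 2 arrays and Klf1 on none. These counts stand beside 36.8% of all genes measured.

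Nearly the whole nuclear-encoded chain gave signal above the background range. Of the 82 genes, 76 (92.7%) were above it on all 3 arrays, beside 36.8% of all genes measured. All 4 genes of complex II, all 9 of complex III, Cycs and all 17 of complex V were above it, as were 34 of 35 of complex I and 11 of 16 of complex IV. The 6 others were Ndufc1 of complex I and the complex IV isoforms Cox4i2, Cox7a1, Cox7b2, Cox8b and Cox8c. With the 99th percentile of the receptor genes as the limit, 67 members passed it, beside 17.4% of all genes.

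**Figure D1:**
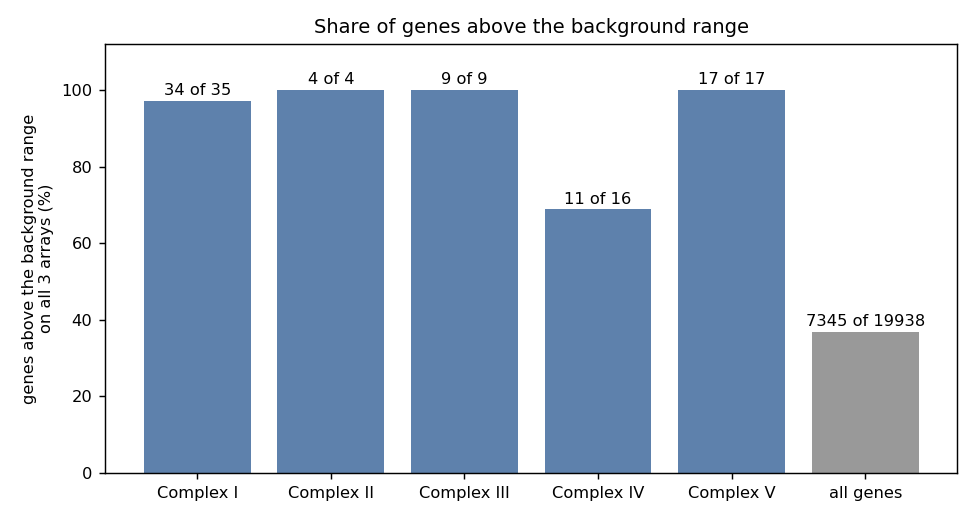
The bars give the share of genes above the background range on all 3 arrays, in percent, for each complex and for all 19938 genes, with the counts above the bars. Complexes II, III and V are at 100%, complex I at 97.1% and complex IV at 68.8%, beside 36.8% for all genes.

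Complex IV, cytochrome c oxidase, divided by isoform. Its 9 widely expressed subunit genes were all above the range, while 2 of its 7 genes for isoforms of other tissues were. Cox4i1, the common form of the largest nuclear subunit, was at 9.74, 9.81 and 9.62 on arrays 1, 2 and 3, far over the limit on each. Cox4i2, its hypoxia-responsive lung form, was at 5.87, 6.08 and 5.91, and missed the limit on array 1 alone. The isoform pair thus lay on different sides of the range by the rule of 3 arrays, although Cox4i2 passed it on 2 of them.

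Cox7a2, the general form of subunit VIIa, was at 8.17, 8.23 and 8.51, and Cox7a1, its heart and muscle form, was at 5.32, 5.58 and 5.63, under the limit on every array. Cox8a, the general form of subunit VIII, was at 7.74, 7.69 and 8.50, while its muscle form Cox8b was at 5.23, 4.92 and 5.38 and its testis form Cox8c at 5.44, 5.27 and 5.29. Both alternative forms were below the limit on every array, and Cox8a was above it on every array. Cox7b was at 8.65, 9.93 and 10.26, and Cox7b2, the testis form, was at 3.68, 3.94 and 3.80. In all 3 families the forms of other tissues showed no signal over the limits.

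The families of subunits VIa and VIb did not divide in this way. Cox6a1, the general form, was at 10.24, 9.94 and 10.67, and Cox6a2, the heart and muscle form, was at 6.94, 6.63 and 6.58. Cox6b1 was at 11.21, 11.59 and 11.36, and Cox6b2, the testis form, was at 7.31, 6.52 and 8.18. Cox6a2 and Cox6b2 were thus above the limit on every array, and Cox6b2 differed 3.15-fold between array 3, where it was highest, and array 2. Neither passed the 99th percentile of the receptor genes on all arrays. Markers of the tissues that use these forms were mixed: 4 of 6 striated muscle markers and 1 of 4 testis markers were above the range, beside 36.8% of all genes, with summed intensities of 609 to 650 and 225 to 274 on the 3 arrays. The muscle markers Ckm, Acta1, Tnnt2 and Tnni3 were above it, at 6.83 ± 0.21, 6.24 ± 0.17, 6.76 ± 0.08 and 7.88 ± 0.23, as was Prm2 of testis at 6.39 ± 0.13. Myh6 and Myh7 of muscle and Prm1 and Tnp1 of testis were under the limit on each array, at 5.24 ± 0.03, 5.77 ± 0.03, 5.62 ± 0.12 and 4.76 ± 0.16. Tnp2 of testis was at 6.22, 5.94 and 6.88 on arrays 1, 2 and 3, over the limit on array 3 alone. The part of such cells in these signals was not tested.

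Cox5a and Cox5b, the remaining subunits near the core of complex IV, were above the range with different spread. Cox5a was at 8.05, 9.84 and 9.0, a range of 3.46-fold with array 2 highest. Cox5b was at 9.99, 9.84 and 10.64. Of the small subunits, Cox6c was at 11.08 ± 0.42. The highest array therefore differed between Cox5a and Cox5b, but neither gene passed the test of variation between arrays described below.

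**Figure D2:**
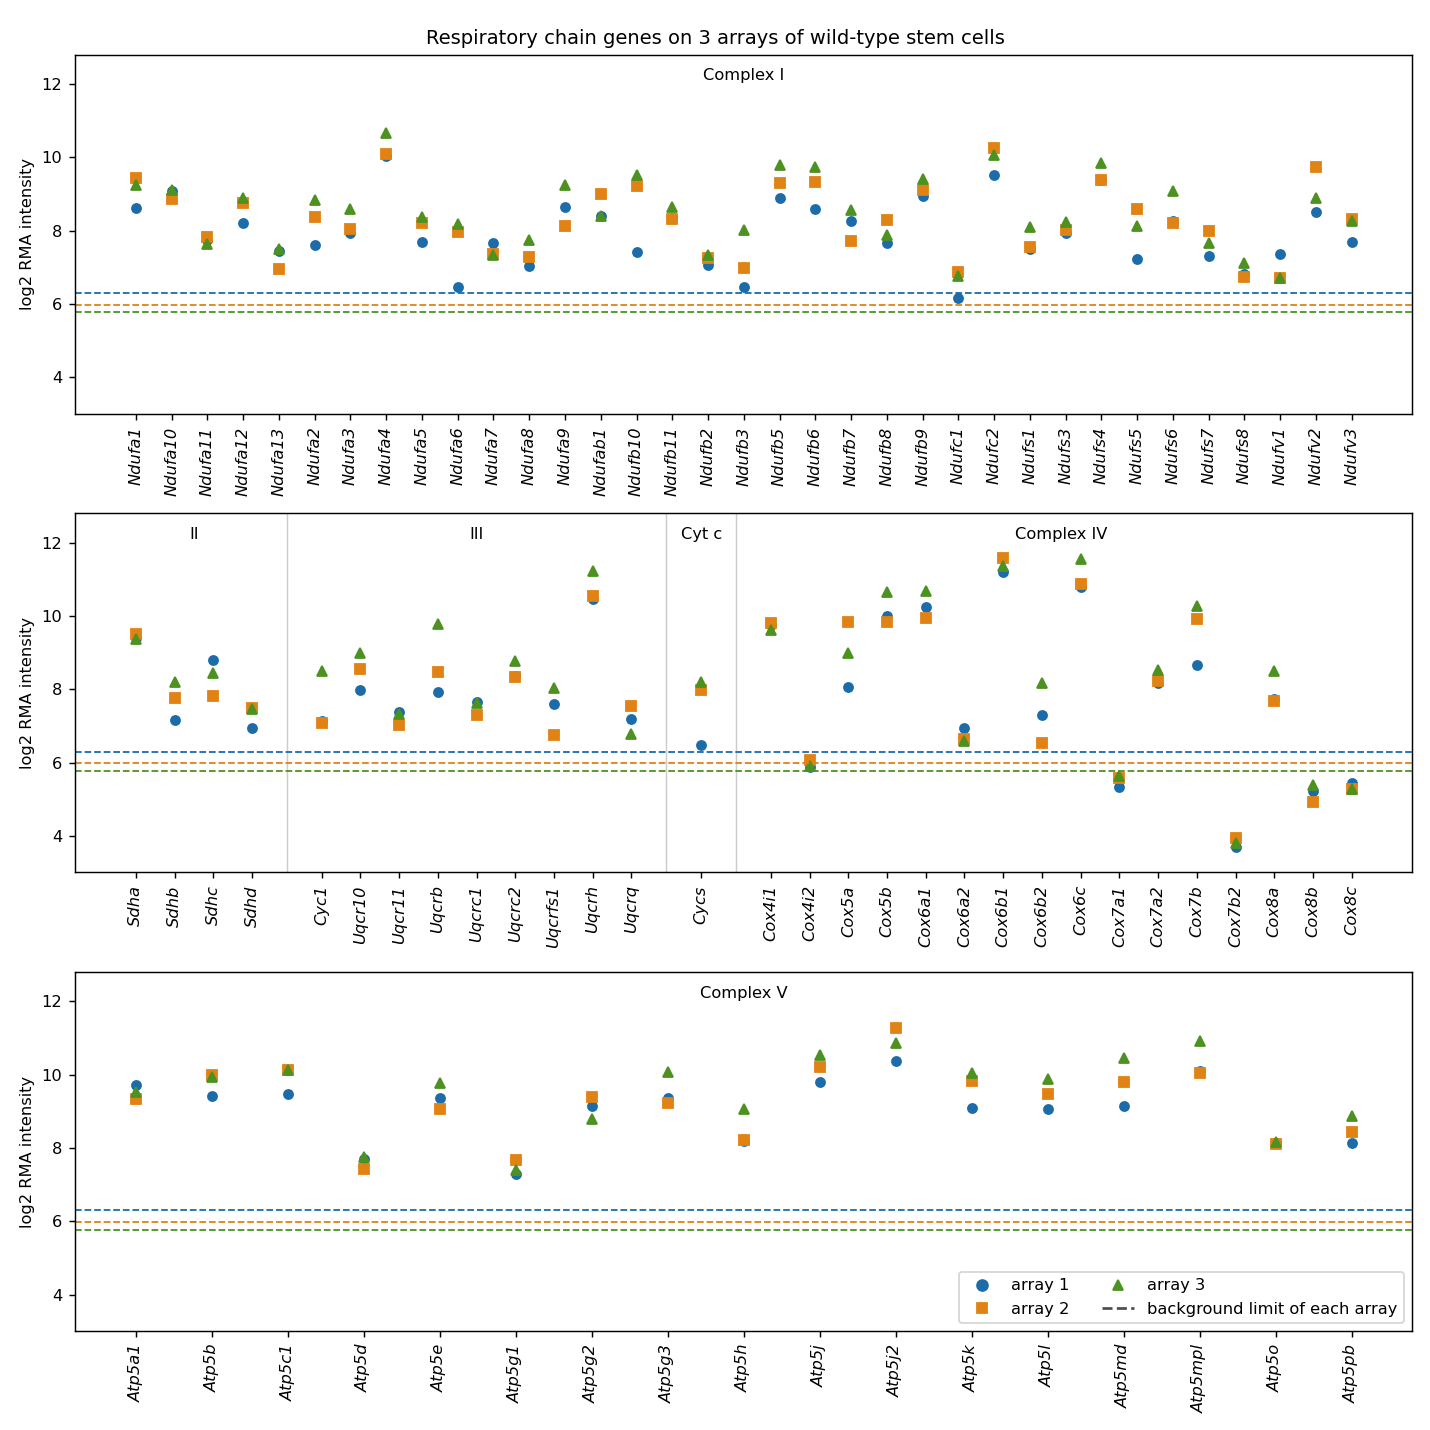
Each point is the log2 intensity of a respiratory chain gene on array 1 (circles), 2 (squares) or 3 (triangles), with genes on the horizontal axis by complex, and the dashed lines are the background limits of the 3 arrays, 6.30, 5.98 and 5.77. Cox7a1, Cox7b2, Cox8b and Cox8c lie under the limits, Cox4i2 and Ndufc1 lie at them, and all other genes lie over them on every array.

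The promoters of these isoform genes are shown because the probe signals of each pair fell on different sides of the limits on every array. They are the 100 bases before the transcript start used in the RefSeq table, read on the gene's strand from the GRCm38.p6 assembly, with each CG dinucleotide in capitals. A high density of CG is a general feature of promoters of widely expressed genes.

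Cox7a2 (chr9:79759854-79759953, minus strand): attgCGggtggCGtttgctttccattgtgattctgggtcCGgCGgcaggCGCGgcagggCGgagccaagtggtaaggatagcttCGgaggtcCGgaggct

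Cox7a1 (chr7:30184071-30184170, plus strand): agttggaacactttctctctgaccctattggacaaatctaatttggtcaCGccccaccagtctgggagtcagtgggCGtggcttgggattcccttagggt

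Cox8a (chr19:7217617-7217716, minus strand): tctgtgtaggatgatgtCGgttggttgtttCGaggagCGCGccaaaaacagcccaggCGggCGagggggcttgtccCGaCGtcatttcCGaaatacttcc

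Cox8b (chr7:140900447-140900546, minus strand): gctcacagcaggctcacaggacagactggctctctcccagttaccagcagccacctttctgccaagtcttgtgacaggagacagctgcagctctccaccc

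Cox7b (chrX:106015600-106015699, plus strand): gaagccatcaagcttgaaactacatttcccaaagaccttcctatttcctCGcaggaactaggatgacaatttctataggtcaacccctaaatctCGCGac

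Cox7b2 (chr5:71548206-71548305, minus strand): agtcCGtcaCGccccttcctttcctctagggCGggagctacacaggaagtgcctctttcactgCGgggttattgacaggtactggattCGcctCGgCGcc

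The stretches of Cox7a2 and Cox8a each hold 9 CG dinucleotides, against 2 for Cox7a1 and 0 for Cox8b. The Cox7b pair ran the other way, with 3 for Cox7b, which was above the range on every array, and 7 for Cox7b2, which was below it on every array. CG density in these 100 bases therefore did not follow the side of the limit in every pair.

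Over the chain as a whole, 67 of the 82 genes matched the RefSeq promoter table, with 72 windows of 300 bases (250 before the start and 50 after). The others are Atp5a1, Atp5mpl, Cox4i1, Cox4i2, Cox6a2, Cox6c, Cox8c, Cyc1, Ndufa2, Ndufb9, Ndufs1, Sdhc, Uqcrb, Uqcrc2 and Uqcrq. The windows held a median of 19 CG dinucleotides, beside 7 in all 32851 windows of the table and 21 in those of genes above the background range. Short motifs of factors known to act on respiratory genes were searched on both strands, and none of them contains another. The NRF1 motif (GCGC, 1 base of any kind, then TGCGC) was in 17 windows (23.6%), beside 4.60% of all windows and 10.7% of those of genes above the range. The ETS motif CCGGAAG, which GABPA binds, was also in 17 windows (23.6%), beside 8.86% and 18.3%.

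The YY1 motif AAGATGGC was in 10 of the 72 windows (13.9%), beside 2.75% of all windows and 4.70% of those of genes above the range. The SP1 motif GGGCGG was in 29 windows (40.3%), beside 35.7% and 62.1%. By complex, NRF1 motifs were in 7 of 34 windows of complex I and 6 of 18 of complex V, with Sdha, Sdhd, Uqcrc1 and Cox6a1 among the other genes that held one. YY1 motifs were in 7 windows of complex I and 3 of complex V. These counts describe letters in a window and were not tested. Of the factors themselves, Gabpa was at 8.66 ± 0.42 and Yy1 at 8.13 ± 0.23, both above the range, while Nrf1 was at 6.41, 5.59 and 5.88 and missed it on array 2.

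Complex I, NADH dehydrogenase, was above the range in all but 1 gene. Of its measured core subunits, which hold the flavin and iron-sulphur clusters, Ndufv1, the NADH-binding subunit, was at 7.36, 6.70 and 6.69, highest on array 1. Ndufv2 was at 8.50, 9.73 and 8.89, highest on array 2, and Ndufs1 was at 7.51, 7.56 and 8.09, highest on array 3. Their highest array thus differed, although over all 6 core genes measured array 3 exceeded array 1 in 5, and array 1 was lowest in 4. Ndufs3, Ndufs7 and Ndufs8, of the arm that hands electrons to coenzyme Q, were at 8.06 ± 0.15, 7.65 ± 0.33 and 6.89 ± 0.20.

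Within complex I, the genes with the widest spread between arrays were accessory subunits. Ndufb10, of the membrane arm, was at 7.42, 9.23 and 9.52, a 4.29-fold range and the widest of the chain. Ndufa6 was at 6.45, 7.96 and 8.18, and Ndufb3 at 6.45, 6.99 and 8.0. All 3 were lowest on array 1, where Ndufa6 and Ndufb3 came close to the limit. The Ndufb genes as a group were highest on array 3 in 8 of 9 cases, the exception being Ndufb8, and the Ndufa genes in 10 of 13.

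Other accessory subunits spread less than these. Ndufa11 was at 7.73, 7.83 and 7.64, with an SD of 0.09. Ndufa10 was at 9.02 ± 0.13 and Ndufb2 at 7.21 ± 0.14. Ndufs4 and Ndufs6, of the NADH-oxidising arm, were at 9.53 ± 0.27 and 8.52 ± 0.49. Ndufab1, the mitochondrial acyl carrier protein, was at 8.39, 9.0 and 8.39. Ndufa4, which is named for complex I and has been found in complex IV, was at 10.02, 10.10 and 10.66. Counted with complex IV it gives 33 of 34 above the range for complex I and 12 of 17 for complex IV.

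Ndufc1, the complex I gene not above the range, rested on 2 probe sets that disagreed. The brighter was at 6.49, 7.67 and 7.63, above the limit on every array, and the dimmer at 5.80, 6.04 and 5.89, under it on array 1. Their mean of 6.15, 6.86 and 6.76 missed the limit on array 1 alone. With the brighter probe set, all 35 complex I genes were above the range.

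Complex II, succinate dehydrogenase, also works in the citric acid cycle, and its 4 genes shared no order of the arrays. Sdha, the flavoprotein that oxidises succinate, was at 9.40, 9.49 and 9.38, an SD of 0.06 and among the 5 smallest of the chain. Sdhb, the iron-sulphur subunit, was at 7.17, 7.77 and 8.20, lowest on array 1. The membrane anchors Sdhc and Sdhd were at 8.79, 7.82 and 8.45 and at 6.95, 7.5 and 7.47. Sdhc was highest on array 1, and Sdhd lowest on it.

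In complex III, which passes electrons from coenzyme Q to cytochrome c, both nuclear-encoded electron-carrying subunits were highest on array 3. Cyc1, cytochrome c1, was at 7.13, 7.08 and 8.51, and Uqcrfs1, the Rieske iron-sulphur protein, was at 7.60, 6.75 and 8.04. Arrays 1 and 2 of Cyc1 lay close together, with array 3 over both. The core proteins Uqcrc1 and Uqcrc2 spread less, at 7.53 ± 0.19 and 8.50 ± 0.24. Of the small subunits, Uqcrb was at 7.91, 8.48 and 9.77, a 3.63-fold range, and Uqcrq was at 7.19, 7.54 and 6.77, with array 3 lowest. Uqcrh was at 10.75 ± 0.42, Uqcr10 at 8.50 ± 0.51 and Uqcr11 at 7.24 ± 0.19.

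Cycs, the mobile carrier between complexes III and IV, was at 6.48, 7.99 and 8.19 as the mean of 3 probe sets, lowest on array 1. Those probe sets disagreed in level. The 2 brighter ones were at 8.31, 9.68 and 10.14 and at 8.17, 9.51 and 9.79, and the third was at 2.95, 4.78 and 4.63, under the limit on every array. All 3 were lowest on array 1, by more than 1 log2 against both other arrays. Cyct, the testis form of cytochrome c, was at 4.28 ± 0.12 and not above the range on any array.

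Complex V, the ATP synthase, was above the range in every gene, also with the 99th percentile as the limit. In its catalytic head, Atp5a1 (alpha) was at 9.73, 9.34 and 9.53, and Atp5b (beta) was at 9.43, 9.98 and 9.93. Array 1 was thus highest for alpha and lowest for beta. Atp5c1 (gamma) was at 9.91 ± 0.38, Atp5d (delta) at 7.63 ± 0.18 and Atp5e (epsilon) at 9.39 ± 0.36. The stalk genes included the steadiest gene of the chain, Atp5o, which encodes the oligomycin sensitivity protein, at 8.13, 8.12 and 8.17. Its partners in the stalk, Atp5h, Atp5j and Atp5pb, were at 8.48 ± 0.50, 10.18 ± 0.37 and 8.48 ± 0.36.

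Atp5g1, Atp5g2 and Atp5g3 encode the c subunit of the membrane rotor with different targeting sequences, and all were above the range on every array. Atp5g1 was at 7.28, 7.66 and 7.39, Atp5g2 at 9.14, 9.40 and 8.79 and Atp5g3 at 9.37, 9.23 and 10.08. The first pair was highest on array 2, and Atp5g3 on array 3. The genes of the remaining membrane part, Atp5j2, Atp5k, Atp5l, Atp5md and Atp5mpl, were at 10.84 ± 0.44, 9.65 ± 0.50, 9.47 ± 0.41, 9.80 ± 0.65 and 10.36 ± 0.50, each with an SD over the variance trend of its level. In the whole chain 47 of 82 genes lay over that trend, beside 43.8% of all genes.

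Of the 82 genes, 17 had more than 1 probe set, and these served as a check within each array. In 11 of the 17, all probe sets had the same highest and the same lowest array. The 6 probe sets of Atp5l, for example, were all lowest on array 1 and highest on array 3. Probe sets of a gene read the same hybridised RNA, so they are not independent replicates. Those of Ndufc1 and Cycs lay on both sides of the limits. Ndufb11, Cox7b, Atp5h and Atp5md had probe sets more than 1 log2 apart that were all above the range.

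**Figure D3:**
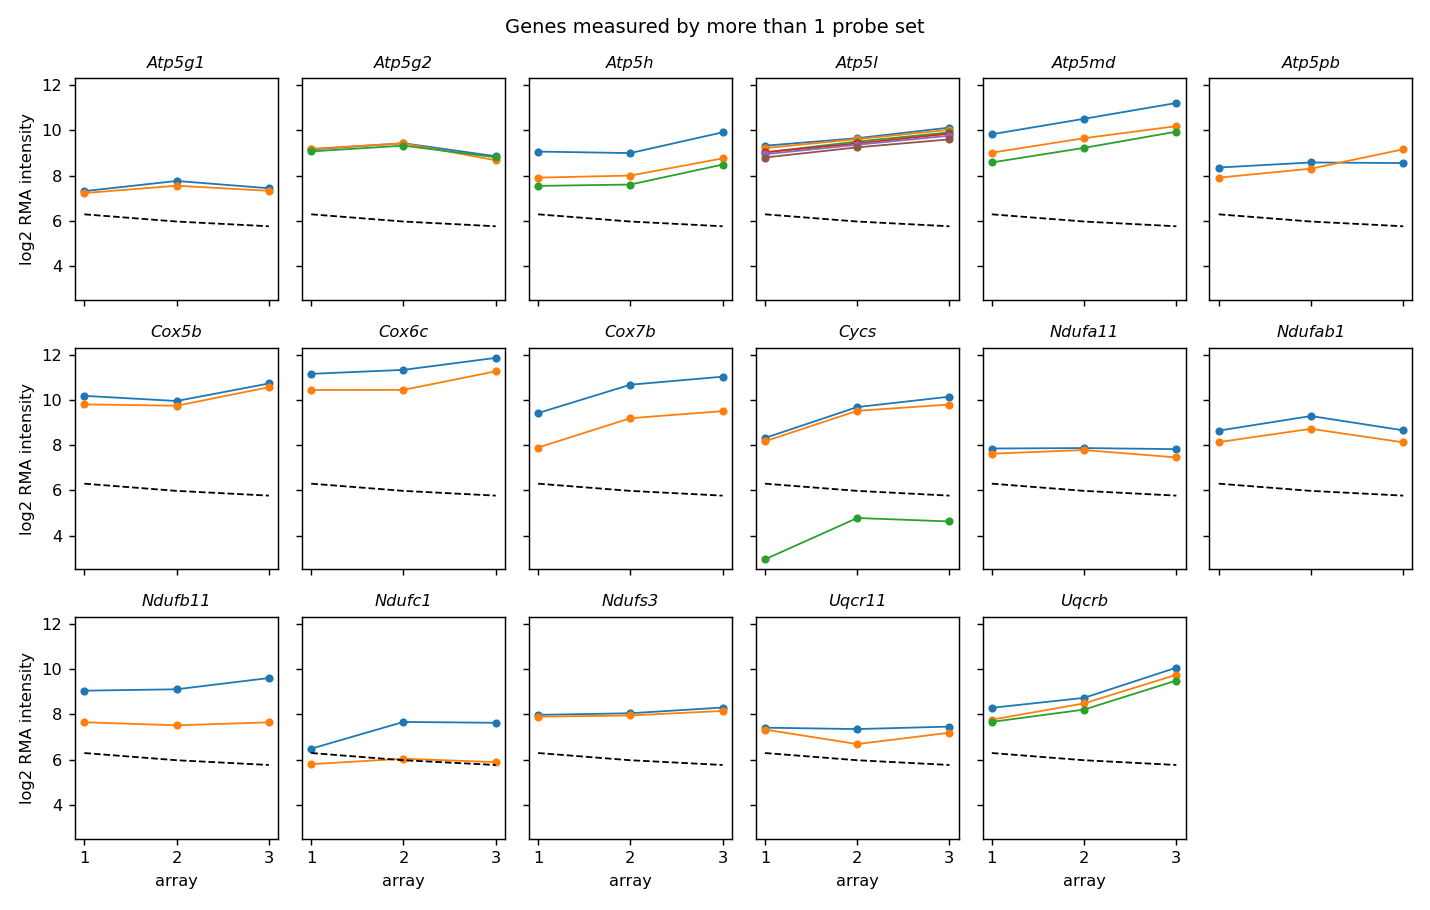
Each panel is a gene with more than 1 probe set, each joined set of points is a probe set with its log2 intensity on arrays 1, 2 and 3, and the dashed line is the background limit. The arrays have no order and the lines only join values of a probe set; the 6 probe sets of Atp5l run in parallel, while the third of Cycs and the dimmer of Ndufc1 lie under or at the limit.

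The variation between arrays was tested with limma, each gene's variance against the trend of variance with level. Of the 82 genes, 0 passed an adjusted p of 0.05, as did 0 of all 19938 genes (0%). At an unadjusted p under 0.05 there were 4 members, beside 1017 genes (5.1%) of all. These 4 were Ndufb10 (unadjusted p = 0.0227, limma), Ndufa6 (0.0373), Cycs (0.0387) and Uqcrb (0.0417), followed by Cox5a (0.0502). Their adjusted p ran from 0.940 for Ndufb10 to 0.973 for Cox5a (limma, Benjamini-Hochberg over all genes). With 2 degrees of freedom a variance, the test finds only very large differences.

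By size alone, 18 members (22.0%) differed by over 1 log2, which is 2-fold, between their highest and lowest array, beside 10.5% of all genes and 13.4% of genes above the range. The share depended on level: for levels of 6 to 7 the counts were 0 of 4 members, beside 11% of all genes of that level, and for 10 to 11 they were 0 of 7, beside 13.8%. For levels of 7 to 8 the counts were 8 of 23 members, beside 20.4% of all genes of that level, for 8 to 9 they were 6 of 21 members, beside 21.0% of all genes of that level, and for 9 to 10 they were 4 of 20, beside 16.4%. By complex, the counts were 8 of 35 for complex I, 1 of 4 for II, 4 of 9 for III, 3 of 16 for IV and 1 of 17 for V, with Cycs as the remaining gene. Atp5md was the gene of complex V and Sdhb that of complex II. Without array 1 the count was 6, and without array 3 it was 7.

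**Figure D4:**
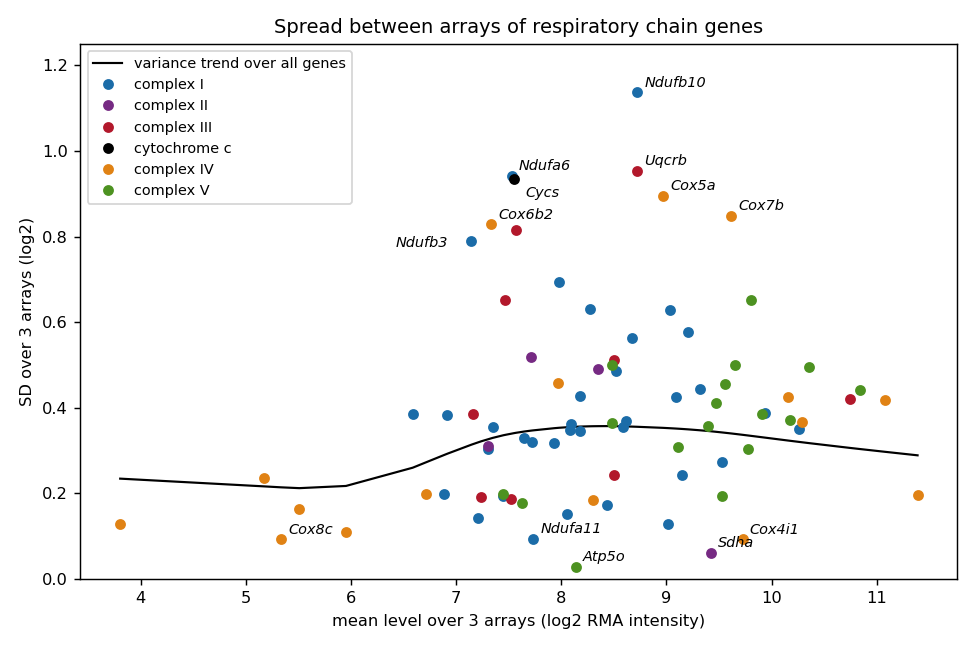
Each point is a respiratory chain gene, with its mean level over the 3 arrays (log2) on the horizontal axis and its SD (log2) on the vertical axis, coloured by complex, and the line is the variance trend over all genes. Ndufb10 is highest at 1.14 and Atp5o lowest at 0.03, and no point passed the test of variance.

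In the deposited values, most genes of the chain were low on array 1 and high on array 3. They lay a median of -0.23 log2 from their own mean on array 1, -0.03 on array 2 and 0.23 on array 3. All genes lay at -0.01, 0.03 and -0.03, and all genes above the range at -0.02, -0.03 and 0.05. Array 3 was the highest for 52 of the 82 members (63.4%), beside 29.8% of all genes and 40.5% of genes above the range. Array 1 was the lowest for 49 (59.8%), beside 34.1% and 35.5%. In 69 of 82 members array 3 exceeded array 1, beside 48.8% of all genes and 56.2% of genes above the range.

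Part of this order was shared with all bright genes. For genes of level 6 to 7, the medians were 0.01, -0.01 and -0.01 over 5406 genes and 0.08, -0.12 and 0.02 over 4 members. For level 7 to 8 they were -0.06, -0.04 and 0.10 over 2615 genes and -0.21, -0.08 and 0.16 over 23 members. For level 8 to 9 they were -0.16, -0.01 and 0.15 over 1082 genes and -0.25, -0.05 and 0.29 over 21 members. For level 9 to 10 they were -0.20, 0.01 and 0.19 over 385 genes and -0.38, 0.08 and 0.25 over 20 members. For level 10 to 11 they were -0.20, 0.02 and 0.20 over 130 genes and -0.27, -0.20 and 0.40 over 7 members. Array 3 exceeded array 1 in 20 of 21 members of level 8 to 9, beside 834 of 1082 genes. For level 9 to 10 this held for 16 of 20, beside 298 of 385. Array 3 was the highest for 17 of 21, beside 583 of 1082, and for 12 of 20, beside 213 of 385. Array 1 was the lowest for 14 of 21, beside 565 of 1082, and for 13 of 20, beside 237 of 385. When the arrays were aligned by cyclic loess, the chain's medians were -0.13, -0.03 and 0.16, beside 0.01, -0.02 and 0.00 for genes above the range. Array 3 was still the highest for 48 of 82 members (58.5%), beside 33.8%. Array 1 was then the lowest for only 37 members (45.1%), beside 30%, and array 2 for 33 (40.2%), beside 36.8%. In the deposited values without array 3, the chain's median on array 1 was -0.09, and that on array 2 its mirror image by construction. Members are not replicates, and no test was made of this shift.

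The complexes differed in their medians on arrays 1, 2 and 3. Complex I lay at -0.25, -0.03 and 0.22 and complex V at -0.30, 0.00 and 0.35, each lowest on array 1. Complex III lay at -0.13, -0.22 and 0.48, with array 2 lowest, and array 1 was the lowest for 3 of its 9 genes. Complex IV lay at -0.13, -0.07 and 0.16, with array 3 highest for 9 of 16 genes. Without the isoforms of other tissues, its 9 widely expressed genes lay at -0.18, -0.07 and 0.39. Among those 9, array 3 was highest for 6 and exceeded array 1 in 8. Complex II lay at -0.19, 0.06 and 0.13, but array 3 exceeded array 1 in only 2 of its 4 genes. The 7 isoforms of other tissues lay at -0.03, -0.06 and -0.01, and array 3 exceeded array 1 in 5 of them. Only 2 of these 7 were above the range, so their medians cannot show whether they shared the shift. Array 1 also differed in other values. Its background limit was the highest of the arrays, and all 6 neutrophil markers (S100a8, S100a9, Ngp, Camp, Ltf and Lcn2), which were above the range, were lowest on it, with summed intensities of 8810, 15263 and 13856 on arrays 1, 2 and 3. The part of either in the shift was not tested. In bulk RNA, fewer cells of a type and less RNA per cell cannot be told apart.

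**Figure D5:**
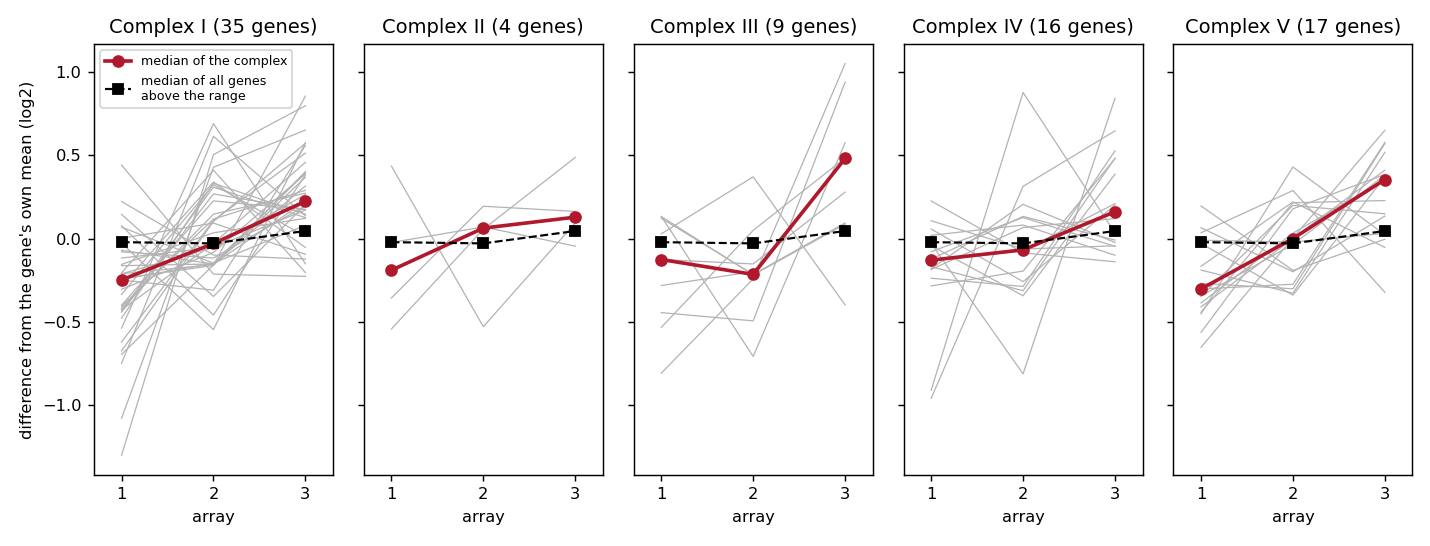
Each grey line joins the differences of a gene from its own mean (log2) on arrays 1, 2 and 3, the red line is the median of the complex and the black dashed line is the median of all genes above the background range. The arrays have no order; the medians of complexes I and V are lowest on array 1 and highest on array 3, at -0.25 and 0.22 and at -0.30 and 0.35.

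Genes that build and serve the chain were above the range less uniformly than its subunits. Of 105 measured genes in the related lists, 71 were above it, beside 36.8% of all genes. With the 99th percentile as the limit the count was 41, beside 17.4% of all genes. In the limma variation test 0 of the 105 passed, and 11 had an unadjusted p under 0.05, beside 5.1% of all genes. Assembly factors made up 45 of these genes, of which 30 were above the range. For complex I the count was 10 of 14, with Ndufaf1 at 7.92 ± 0.82, Ndufaf2 at 8.42 ± 1.39 and Ndufaf3 at 7.07 ± 0.13. Ndufaf6 at 5.27 ± 0.53, Nubpl at 5.71 ± 0.12, Foxred1 at 5.76 ± 0.46 and Tmem126b at 7.12 ± 1.07 were not above it on all arrays, and Tmem126b missed it on array 2 alone.

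For complex II, 2 of 4 assembly factors were above the range. Sdhaf1 was at 8.15 ± 0.23 and Sdhaf2, which helps attach the flavin, at 6.90 ± 0.34, with Sdhaf3 at 6.01 ± 0.12 and Sdhaf4 at 6.16 ± 0.15 not above it on array 1. For complex III the count was 3 of 6, namely Ttc19 at 7.22 ± 0.04, Uqcc2 at 6.92 ± 0.38 and Uqcc3 at 7.52 ± 0.41. Bcs1l, which inserts the Rieske protein, was at 6.48, 5.94 and 6.18, just under the limit of array 2, and Lyrm7 and Uqcc1 were at 4.75 ± 0.08 and 5.03 ± 0.57. For complex V 3 of 4 were above it, with Atpaf1 at 6.69 ± 0.19, Tmem70 at 6.42 ± 0.15 and Fmc1 at 6.81 ± 0.68, and with Atpaf2 at 5.88 ± 0.23 not above it on all arrays.

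For complex IV, 12 of 17 assembly factors were above the range. Surf1 was at 7.08 ± 0.38 and Cox10, of haem A synthesis, at 6.75 ± 0.35. The copper chaperone Sco1 at 5.60 ± 0.33 and Coa7 at 5.19 ± 0.22 were below the limit on every array, and Cox19 at 6.11 ± 0.51, Coa6 at 6.58 ± 0.43 and Taco1 at 5.76 ± 0.11 missed it on at least 1. Of the supercomplex and hypoxia partners, Cox7a2l was at 9.77 ± 0.09, Higd1a at 7.64 ± 0.58 and Higd2a at 8.80 ± 0.47, and the hypoxia-inducible Ndufa4l2 was at 5.73 ± 0.18, not above the range.

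Genes that feed the chain or regulate it lay on both sides of the limits. Atpif1, the inhibitor of the ATP synthase, was at 10.82, 11.21 and 11.79, lowest on array 1, while the uncouplers Ucp1 and Ucp3 stayed under all 3 limits at 4.56 ± 0.28 and 4.90 ± 0.36. Of the coenzyme Q synthesis list 5 of 12 (41.7%) were above the range, a share near the 36.8% of all genes. They were Coq2 at 7.09 ± 0.15, Coq4 at 6.59 ± 0.17, Coq8a at 6.98 ± 0.30, Coq9 at 6.77 ± 0.34 and Coq10a at 6.93 ± 0.20. Pdss2 at 5.18 ± 0.28 and Coq3 at 5.87 ± 0.33 were not above it. Of the citric acid cycle list 12 of 13 were above it, including Cs at 8.57 ± 0.42 and Idh3b at 8.36 ± 0.46, with Idh3a at 6.03 ± 0.16 missing it on array 1 alone.

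Of the regulators of mitochondrial biogenesis, 10 of 15 were above the range. The coactivator genes Ppargc1a and Ppargc1b were at 5.12 ± 0.42 and 5.81 ± 0.12 and the related Pprc1 at 6.64 ± 0.24. Ppargc1a was below the limit on every array, Ppargc1b passed it on array 3 alone, and Pprc1 passed it on all. Gabpb1 at 6.18 ± 0.32 and Esrra at 5.97 ± 0.05 were not above it on all arrays either. Of the carriers, Slc25a4 and Slc25a5, which exchange ADP and ATP, were at 7.89 ± 0.33 and 8.33 ± 0.30, and Slc25a31, their testis form, was under all 3 limits at 4.18 ± 0.24.

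Of the genes for other routes of electrons into coenzyme Q, 7 of 8 were above the range. Etfa and Etfb, the subunits of the electron transfer flavoprotein, were at 9.40 ± 0.95 and 8.34 ± 0.16, and its oxidoreductase Etfdh was at 7.12, 6.29 and 8.61. Sqor was at 6.54 ± 0.73 and missed the limit on array 1 alone. These lists were smaller than the chain and their counts were not tested against it.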

How the data were processed

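Amplified, biotin-labelled RNA of each sample was hybridised to 1 single-colour array, per the labels' protocols. The submitters' processing notes name RMA and Affymetrix Expression Console for the authors' processing, without versions. Which arrays RMA was run on together is not given in these sources. RMA aligns the distributions of arrays run together, which can hide array-wide differences. The deposited values were read as intensity on a linear scale from their range, and log2 of them was used. Of 35554 probe sets, 21789 named 1 gene in the platform annotation and were used, 1621 named several and 12144 none; probe sets of a gene were averaged.

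Variation was tested with limma 3.58.1 and statmod 1.5.0 in R 4.3.3 (variance of each gene against the robust trend, F test of excess variance, one-sided, with a prior of 4.34 degrees of freedom, Benjamini-Hochberg over 19938 genes), a procedure checked on simulated data. Array values carry no counts, so the number of arrays limits the precision. Alternatives changed the limit, the probe set rule, the normalization, the variance model and the arrays used. Named genes were members outside the range, core subunits, isoform families, the 5 smallest variation p and SD, genes with split probe sets, and, of the related lists, the first 3 measured genes and those on the rarer side of the limit if 5 or fewer; other members were named after their values were seen. Members and lists were chosen with earlier results of these data known.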

Additional observations from a re-analysis of the deposited data

Results flagged for a closer look

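The annotation held 6 probe sets that list a respiratory chain symbol together with another gene and were left out above. All 6 were above the background range on each of the 3 arrays, with mean levels between 8.12 and 11.22 log2, a signal in data that the counts above do not use.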

How the results depend on the processing

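The count of 76 members above the background range stayed within 67 and 78 under the 10 alternatives run, of which the one with olfactory receptor genes alone (76) was chosen after seeing the data. For the related lists it was 41 with the 99th percentile, against 71. The count of members with a range over 1 log2, 18 with all arrays, lay between 6 and 12 when 1 array was left out (6 without array 1, 7 without array 3), where fewer arrays give a smaller range by construction. The limma variation test called 0 members and 0 of all genes under each of its 9 alternatives, with 4 to 10 members at an unadjusted p under 0.05 and a smallest adjusted p of 0.740 to 0.975. The chain's median shift on array 1, -0.23, lay between -0.25 and -0.09, the last without array 3, and on array 3, 0.23, it lay between 0.15 (without array 1) and 0.28. On array 2 it was 0.09 when array 3 was left out and below 0 otherwise. With 1 array left out, the shifts of the remaining arrays mirror each other by construction. Those values are therefore not like the deviations from a mean of 3 arrays. With the brightest probe set, the levels of 6 members moved by more than their SD, and under the other alternatives 0 did. No paired analysis was possible because there is 1 group.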
